A study of Oryctolagus cuniculus with 17 samples.

Results

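Alveolar type 1 cells are the flat epithelial cells that cover most of the gas exchange surface of the lung, and they are easily injured by high oxygen. They arise from the epithelium of the distal lung and can be replaced by alveolar type 2 cells, the surfactant-producing cells, which flatten as they take on the type 1 form. The 9 genes described here, AGER, HOPX, CLIC5, CAV1, CAV2, RTKN2, PDPN, EMP2 and AKAP5, are used as markers of this cell. They were taken by their human symbol from a table of 13827 genes. Each symbol had 1 line, and all 9 genes passed the filter on low counts and were among the 13142 genes tested.

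RNA came from right lung homogenates of New Zealand White rabbit pups that were delivered preterm and kept in incubators on milk replacer. Pups of the hyperoxia groups HT3, HT5 and HT7 breathed 95% oxygen until postnatal day 3, 5 or 7, and those of the normoxia groups NT3, NT5 and NT7 breathed 21% oxygen until the same days. Every group therefore shared preterm birth, the incubator and the feeding. There were 3 samples in each group except HT5, which had 2, and the samples held between 13123731 and 18111086 counts with each locus counted once. Neither the labels nor the methods say how pups of different litters were divided between the groups. The label lung was matched by the surfactant and other type 2 genes, whose summed level lay between 13300 and 34660 CPM over the samples, and by the 9 genes here, at 2224 to 9815 CPM.

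Levels are CPM, the counts scaled to the TMM-adjusted size of each library, and are compared between samples of 1 gene, not between genes, since the table gives no transcript lengths. Differences are log2 fold changes (log2FC) from edgeR's quasi-likelihood test with Benjamini-Hochberg adjustment over all genes tested. A gene is said to have risen or fallen when this adjusted p-value was under 0.05. Differentially expressed genes (DEGs) as the paper defines them also had to lie beyond 2 on the log2 scale in either direction, at an adjusted p-value under 0.01.

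After 7 days of hyperoxia, 7 of the 9 genes had fallen, to between 12.5% (RTKN2) and 31.4% (CAV2) of their normoxia level, whereas HOPX and PDPN had not changed by this test. Over all genes, 23.7% fell and 23.7% rose on day 7. The median log2FC of the 9 genes was -2.26 on day 7, -1.26 on day 5 and -0.19 on day 3, against -0.01, -0.02 and 0.00 over all genes tested. The same 7 genes fell on day 5, when 15.4% of all genes fell and 15.9% rose, although EMP2 missed the threshold with the replicate number as a block (adjusted p = 0.0508 from edgeR). None of the 9 was called on day 3. In a homogenate, fewer cells of a type and less RNA per cell cannot be told apart.

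**Figure D1:**
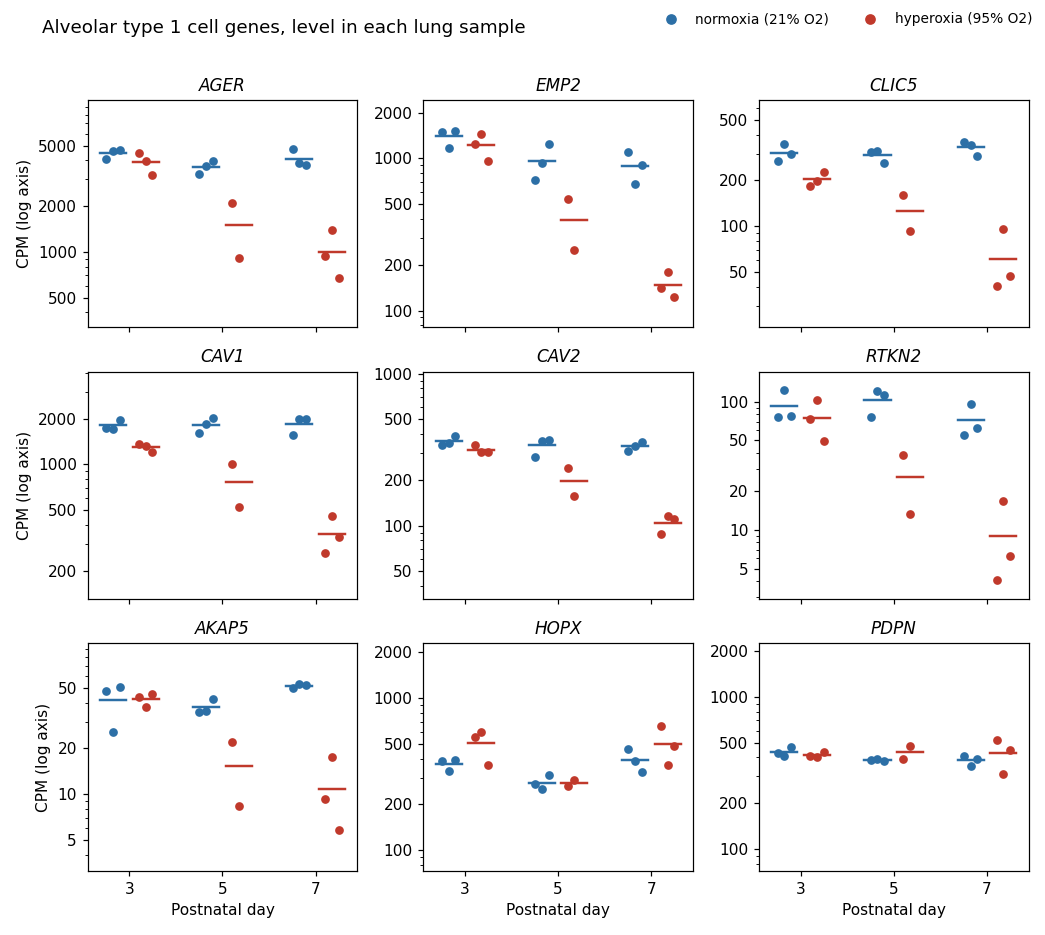
Level of each gene in each of the 17 samples, in CPM on a log axis, against postnatal day. Points are samples, horizontal lines are group means, and blue is normoxia and red hyperoxia. The HT7 points of AGER, EMP2, CLIC5, CAV1, CAV2, RTKN2 and AKAP5 lie below every NT7 point, as for 27.2% of all genes tested. Those of HOPX and PDPN overlap with NT7.

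AGER encodes RAGE, a receptor for advanced glycation end products and S100 proteins that type 1 cells carry in large amounts on their basal side. Its level was 938, 1395 and 669 CPM in HT7 replicates 1, 2 and 3, against 4760, 3866 and 3703 CPM in NT7. All HT7 samples lay below all NT7 samples, as was so for 27.2% of the genes tested. Group means ran in the order NT3 (4450 ± 313 CPM, SD, n = 3), NT7 (4110 ± 569, n = 3), HT3 (3891 ± 647, n = 3), NT5 (3644 ± 365, n = 3), HT5 (1511 ± 840, n = 2) and HT7 (1001 ± 367, n = 3). Neighbours among the first 4 of these means differed by less than the larger SD of the pair, whereas the samples of NT3 and NT5 did not overlap. HT5 and HT7 stood apart from these groups, and their means differed from each other by less than the larger SD. The log2FC was -2.04 on day 7 (standard error 0.28, adjusted p = 5.54e-05 from edgeR), a 4.11-fold lower level, and -1.27 on day 5 (standard error 0.32, adjusted p = 0.00804). The table places AGER (ENSOCUG00000016426) on chromosome 12 from 20967255 to 20969976 on the reverse strand, in a locus whose counts it shares with PBX2, so the reads of these genes cannot be separated.

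CAV1 and CAV2 encode the caveolins, membrane proteins that form caveolae, the small invaginations abundant in type 1 cells and also in endothelial cells. CAV1 had 260, 458 and 332 CPM in HT7 against 1558, 1985 and 1979 CPM in NT7. CAV2 had 87.4, 116 and 111 CPM in HT7 against 309, 335 and 355 CPM in NT7. For both genes every HT7 sample lay below every NT7 sample, as for 27.2% of all genes tested. In edgeR, CAV1 changed by -2.40 (log2FC, standard error 0.23, adjusted p = 3.55e-06) and CAV2 by -1.67 (standard error 0.16, adjusted p = 2.94e-06). On day 5 the values were -1.26 for CAV1 and -0.77 for CAV2, which was the least negative log2FC among the 7 genes that fell, on both days. The genes lie next to each other on chromosome 7, CAV1 (ENSOCUG00000014520) from 28753356 to 28800840 and CAV2 (ENSOCUG00000014515) from 28818262 to 28826159, both on the reverse strand, and were counted as separate loci.

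CLIC5, a chloride intracellular channel protein that links the membrane to the actin cytoskeleton, had 40.6, 96.1 and 47.4 CPM in HT7 against 361, 343 and 292 CPM in NT7. All HT7 samples lay below NT7, as for 27.2% of all genes tested. In edgeR the day 7 difference was -2.44 (log2FC, standard error 0.28, adjusted p = 1.11e-05) and the day 5 difference -1.21 (standard error 0.30, adjusted p = 0.00826). It lies on chromosome 12 from 35149066 to 35339558. EMP2, a membrane protein of the tetraspan family, had 140, 180 and 123 CPM in HT7 against 1103, 681 and 900 CPM in NT7. Its log2FC on day 7 was -2.60 (standard error 0.29, adjusted p = 9.78e-06). EMP2 has no rabbit symbol in the table and was matched by its human one (ENSOCUG00000022309, chromosome 6 from 4299855 to 4306702).

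RTKN2, used as a marker of type 1 cells, had the most negative log2FC of the 9 genes on days 5 and 7. Its level was 4.04, 16.7 and 6.30 CPM in HT7 (70, 276 and 123 counts) against 55.4, 96.7 and 62.6 CPM in NT7. The log2FC was -3.00 on day 7 (standard error 0.50, adjusted p = 0.000226 from edgeR), a 7.98-fold lower level, and 0.86% of all genes tested had a lower one. On day 5 it was -2.0 (standard error 0.55, adjusted p = 0.013). AKAP5, which anchors protein kinase A near membrane receptors, had 9.23, 17.5 and 5.79 CPM in HT7 against 49.6, 52.9 and 52.2 CPM in NT7. The 3 NT7 samples were close together and every HT7 sample lay far below them (log2FC -2.26, standard error 0.38, adjusted p = 0.000236). HT7 lay wholly below NT7 for 27.2% of all genes tested. RTKN2 (ENSOCUG00000001689) lies on chromosome 18 from 23900679 to 24036785 and AKAP5 (ENSOCUG00000011733) on chromosome 20 from 12155068 to 12156279.

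HOPX encodes a small homeodomain protein that does not bind DNA and is found in type 1 cells and in the epithelial cells that give rise to them. It had 661, 361 and 484 CPM in HT7 against 465, 385 and 329 CPM in NT7, so the groups overlapped. The log2FC on day 7 was 0.35 (95% confidence interval -0.09 to 0.80, adjusted p = 0.181 from edgeR). On day 3 it had 553, 602 and 365 CPM in HT3 against 384, 330 and 393 CPM in NT3, a log2FC of 0.46 (95% confidence interval 0.01 to 0.91, adjusted p = 0.314). On day 5 it had 264 and 289 CPM in HT5, within the 254 to 310 CPM of NT5, and the log2FC was -0.01 (95% confidence interval -0.51 to 0.49). HOPX (ENSOCUG00000005107) lies on chromosome 15 from 92289123 to 92294935 on the forward strand.

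PDPN encodes podoplanin, a mucin-type glycoprotein of the apical type 1 membrane that is also made by lymphatic endothelium, mesothelium and some fibroblasts. It had 521, 309 and 445 CPM in HT7 against 406, 349 and 391 CPM in NT7. HT7 values lay on both sides of NT7, and the log2FC was 0.15 (95% confidence interval -0.16 to 0.47, adjusted p = 0.409 from edgeR). The intervals of day 3 (-0.39 to 0.24) and day 5 (-0.19 to 0.51) also held 0. A fall of the size seen for CAV2 on day 7, the least negative of the 7, lies outside the day 7 intervals of both HOPX and PDPN. PDPN (ENSOCUG00000005899) was placed on the unassigned scaffold GL018739 from 1239243 to 1269152.

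**Figure D2:**
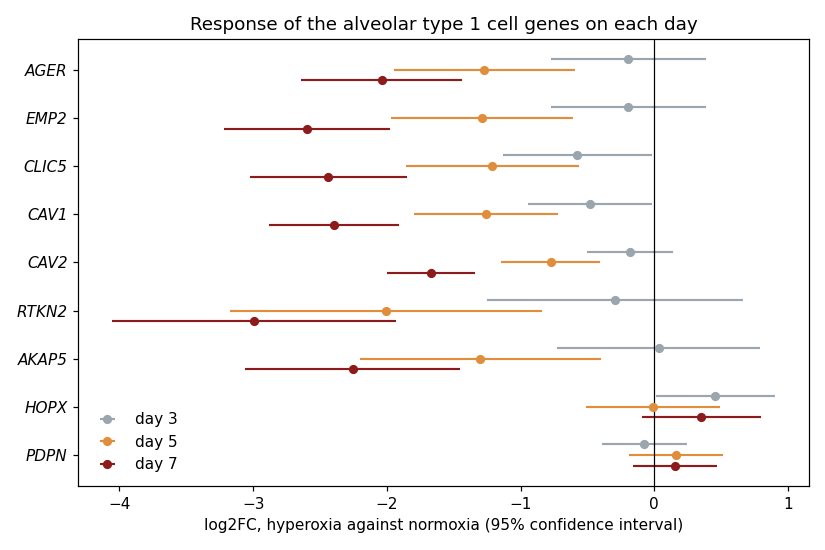
log2FC of each gene in hyperoxia against normoxia on days 3, 5 and 7, with 95% confidence intervals from edgeR. For the 7 genes that fell, day 7 (dark red) lies to the left of day 5 (orange) and day 5 to the left of day 3 (grey), whereas HOPX and PDPN show no such order, and the HOPX interval of day 3 (0.01 to 0.91) lies above 0.

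By the limits of the paper applied to edgeR, 6 of the 9 genes were DEGs on day 7, all downregulated (AGER, EMP2, CLIC5, CAV1, RTKN2 and AKAP5), against 2.84% of all genes tested. CAV2 missed the limit on the fold change. AGER lay just past it, and its log2FC was less negative than the limit with library totals and without HT7 replicate 1 (-1.99), HT7 replicate 3 (-1.81) or NT7 replicate 1 (-1.92), as was that of AKAP5 without HT7 replicate 3 (-1.94). On day 5 none of the 9 genes passed these limits in edgeR, against 1.58% of all genes tested. RTKN2 lay at the limit on that day, with an adjusted p of 0.013 in edgeR, and passed with DESeq2 (adjusted p = 0.00437). Without HT5 replicate 1, RTKN2 (log2FC -2.96, adjusted p = 0.00596) and AKAP5 (-2.16, adjusted p = 0.0054) passed these limits in edgeR on day 5.

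On day 3, none of the 9 genes passed in edgeR or with DESeq2's Wald test, against 1.03% of all genes tested in edgeR. 3 of the 9 genes had an unadjusted p-value under 0.05 in edgeR, as had 2013 of the 13142 genes tested. CLIC5 and CAV1 lay towards lower and HOPX towards higher values. CLIC5 had 184, 200 and 227 CPM in HT3 and 267 to 345 CPM in NT3, a log2FC of -0.57 (95% confidence interval -1.13 to -0.02, adjusted p = 0.309 from edgeR). CAV1 had 1202 to 1351 CPM in HT3 and 1710 to 1966 CPM in NT3, a log2FC of -0.48 (adjusted p = 0.304). For these genes and for CAV2, every HT3 sample was below every NT3 sample, as for 13.9% of all genes tested. AGER, EMP2, RTKN2, AKAP5, HOPX and PDPN overlapped between HT3 and NT3.

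On day 5, the calls rested on the HT5 samples, which differed from each other. AGER had 2105 and 917 CPM in HT5 replicates 1 and 2, against 3259 to 3986 CPM in NT5. EMP2 had 539 and 251 CPM, against 725 to 1238 CPM in NT5. RTKN2 had 38.4 and 13.3 CPM, against 76.3 to 121 CPM. For all 7 genes both HT5 samples lay below NT5, as for 29.2% of all genes tested, but without HT5 replicate 2 only CAV1 still passed (log2FC -0.89, adjusted p = 0.0486). The other 6 then had log2FC values from -1.44 (RTKN2) to -0.52 (CAV2), with adjusted p-values from 0.092 to 0.306. A fit of the day 5 samples alone called 3 of the 9 genes. Without HT5 replicate 1, the log2FC of AGER on day 5 was -1.99.

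Within HT5 and within HT7, the 7 falling genes were all highest in the sample in which HOPX and PDPN were lowest. HT5 replicate 1 had more of each of the 7 falling genes than HT5 replicate 2 and less HOPX (264 against 289 CPM) and PDPN (390 against 474 CPM). In HT7, replicate 2 had the highest level of each of the 7 falling genes and the lowest HOPX (361 CPM) and PDPN (309 CPM). HT3 showed no such pattern, with AGER and HOPX both lowest in replicate 3 and CLIC5 highest there. Without HT7 replicate 2, all 9 genes were called on day 7, HOPX (log2FC 0.55, adjusted p = 0.0335 from edgeR) and PDPN (0.35, adjusted p = 0.0186) as having risen. Without HT7 replicate 1, the values were 0.11 for HOPX and -0.02 for PDPN. The summed level of 13 type 2 markers moved with the falling genes, at 34660 CPM in HT5 replicate 1 and 13300 CPM in replicate 2, and at 14220, 30770 and 17090 CPM in HT7 replicates 1, 2 and 3. Its part in these differences was not tested.

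Whether the response itself differed between days was tested as the day 7 effect minus the day 3 effect. It was more negative on day 7 for the same 7 genes, from -1.48 for CAV2 to -2.70 for RTKN2, and 11% of all genes tested were called in this direction. EMP2 and AKAP5 also passed the limits of the paper here, against 1.02% of all genes tested. For HOPX the difference was -0.10 (95% confidence interval -0.74 to 0.53) and for PDPN 0.23 (95% confidence interval -0.22 to 0.67). Within hyperoxia, the 7 genes also fell between HT3 and HT7, when 22% of all genes tested fell. EMP2 went from 1223 ± 243 CPM (SD, n = 3) in HT3 to 148 ± 29.2 CPM (SD, n = 3) in HT7, an 8.28-fold lower level, and RTKN2 from 75.1 ± 26.8 to 9.01 ± 6.75 CPM (SD, n = 3 each), which was 8.37-fold lower. These were the genes of the 9 that passed the limits of the paper between HT3 and HT7, against 2.11% of all genes tested. HOPX (log2FC -0.01) and PDPN (0.04) were not called between these groups.

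In normoxia, no gene of the 9 passed between NT3 and NT7 in edgeR or DESeq2, and 0% of all genes did so in edgeR (824 had an unadjusted p-value under 0.05, and DESeq2 called 39). 1 gene, EMP2, had an unadjusted p-value under 0.05, with 1172 to 1526 CPM in NT3 and 681 to 1103 CPM in NT7 (log2FC -0.65, adjusted p = 0.733). The other 8 genes had log2FC values from -0.36 (RTKN2) to 0.32 (AKAP5) between these groups.

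Each gene was also set against AGER in the same sample, a ratio that does not depend on the scaling between samples. It was chosen after the fall of AGER was seen, so it restates the values above and is given without a test. The log2 ratio of HOPX to AGER was -0.51, -1.95 and -0.47 in HT7, against -3.49 to -3.33 in NT7, and -3.00 and -1.67 in HT5, against -3.86 to -3.58 in NT5. Every hyperoxia sample of these days lay above every normoxia sample of its day. This was also so on day 3, with HOPX ratios of -3.13 to -2.73 in HT3 and -3.81 to -3.41 in NT3. The mean difference over days 5 and 7 was 1.90 for HOPX and 1.88 for PDPN. On day 7 the ratio to AGER was 5.34 times that of normoxia for HOPX and 4.65 times for PDPN.

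The mean difference over days 5 and 7 was -0.95 for RTKN2 and 0.50 for CAV2. It lay between -0.23 and -0.14 for EMP2, AKAP5, CLIC5 and CAV1. For these genes in this order, the day 5 differences were 0.03, -0.06, 0.13 and 0.06. Those of day 7 were -0.49, -0.305, -0.44 and -0.33. All 8 ratios share the AGER value, and with it the counts of PBX2.

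**Figure D3:**
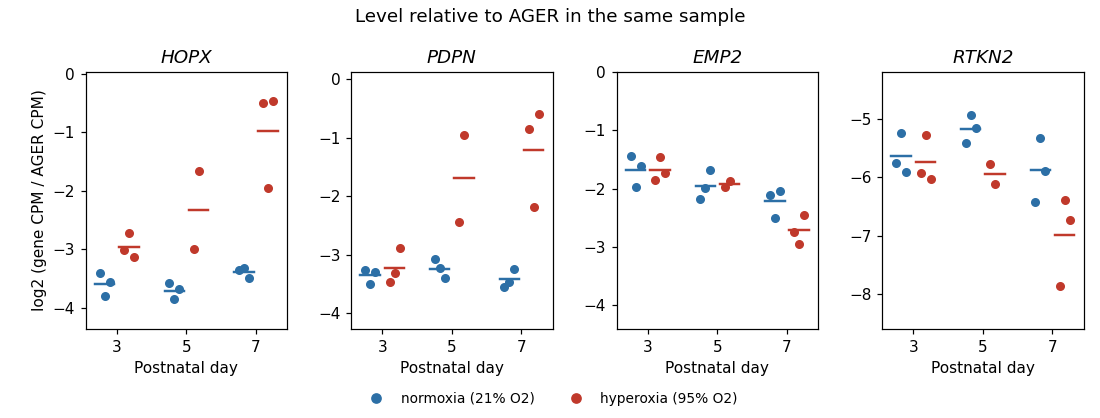
log2 ratio of HOPX, PDPN, EMP2 and RTKN2 to AGER in each sample, against postnatal day, with group means as lines, normoxia in blue and hyperoxia in red. The vertical axes have the same length but different positions. HOPX and PDPN ratios of HT5 and HT7 lie above those of normoxia, the EMP2 ratios overlap on day 5, and the RTKN2 ratios of HT5 lie below NT5.

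Other markers of type 1 cells mostly fell. Of 22 further markers, 19 were tested, and 13 fell and 3 rose on day 7, while 10 fell and 1 rose on day 5. The shares that rose were below those of all genes tested (23.7% on day 7 and 15.9% on day 5). Their median log2FC on day 7 was -1.38. The largest decreases were those of VEGFA (-2.2, adjusted p = 4.95e-06 from edgeR), the growth factor by which type 1 cells act on capillaries, and COL4A4 (-2.16, adjusted p = 0.000134), a chain of basement membrane collagen. The largest increases were those of the keratin KRT7 (1.44, adjusted p = 0.000122) and the annexin ANXA3 (0.64, adjusted p = 0.00496). Without HT5 replicate 2, 4 of the 19 fell on day 5 and none rose, and without NT5 replicate 2 none rose.

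Of a list of genes of caveolae and of flotillins, which form other membrane domains, 6 were tested, and 4 fell and 1 rose on day 7. CAVIN2 had a log2FC of -2.75 and CAVIN3 one of -0.90, whereas the flotillin gene FLOT1 rose by 0.90 and FLOT2 had -0.04. Each flotillin gene shares its locus and counts with another gene, so neither value can be ascribed to it alone. Of 7 genes tested that encode ligands of RAGE, 2 fell and 1 rose on day 7, against 23.7% of all genes tested in either direction. S100A1 had -2.87 (adjusted p = 3.91e-06 from edgeR), and 1 of the 7 fell without HT7 replicate 1, HT7 replicate 3 or NT7 replicate 1. S100B (-2.0, with at most 42 counts in a sample), S100A9 (0.93) and S100A12 (0.93) did not pass.

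Of 15 tested genes of the YAP/TAZ pathway and other regulators of type 1 cells, 5 rose and 4 fell on day 7, with a median log2FC of -0.07. Over all genes tested, 23.7% rose and 23.7% fell. Highest in the list were ANKRD1 (5.03, adjusted p = 0.000499 from edgeR, at most 284 counts in a sample) and CCN1 (2.67, adjusted p = 0.00207), which rose. TEAD1 (-0.99) and AMOTL2 (-0.93) were lowest and fell. YAP1 had a log2FC of -0.09 and WWTR1, which encodes TAZ, one of 0.00.

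Markers of the whole lung epithelium did not fall with the 7 genes. Of 11 tested pan-epithelial genes, 7 rose and none fell on day 7 in edgeR with TMM factors, led by ELF3 (1.97) and CLDN7 (1.83), while ESRP2 (-0.52) and GRHL2 (-0.05) did not pass. With RLE factors, or without HT7 replicate 2, 1 of the 11 fell. Their summed level was 1666 to 2146 CPM in HT7 and 887 to 1170 CPM in NT7. Of 9 tested markers of the transitional state between type 2 and type 1 cells, 7 rose and none fell, with CDKN1A at 5.51 and AREG at 2.63. The study picked CDKN1A on these samples, so its rise is not independent evidence. KRT17 (-1.51, with at most 56 counts in a sample) and FN1 (-0.26) did not pass, and without NT7 replicate 1, 1 of the 9 fell. Of 13 tested type 2 markers, 3 fell and 2 rose, with SFTA2 at -1.79, SLC34A2 at -1.51, SFTPA1 at 1.17 and MUC1 at 0.88, which was no more than the share of all genes in either direction (23.7%). Without HT7 replicate 2, 7 fell and 1 rose, without HT7 replicate 1, 2 fell and 1 rose, and without NT7 replicate 2 or 3 none rose.

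Endothelial markers moved in the same direction as the 7 genes, and endothelium also expresses CAV1 and CAV2. Of 12 tested, 9 fell and 1 rose on day 7, led by TEK (-2.79) and KDR (-2.60), with FLT1 at 1.10 and VWF at 0.29. Their summed level was 1167 to 1608 CPM in HT7, 2880 to 3394 CPM in NT7, 1683 to 1771 CPM in HT5 and 2745 to 3365 CPM in NT5. The part of endothelial cells in the caveolin values was not tested.

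PDPN is shared with other cells. Of 6 lymphatic endothelial markers, FLT4 (-1.54) and LYVE1 (-0.76) fell on day 7, and RELN (-0.13) and MMRN1 (-0.03) did not pass. The summed level of the 6 was 813 to 861 CPM in HT7 and 1152 to 1503 CPM in NT7. Of 10 tested fibroblast and mesothelial markers, 4 fell and 1 rose, with UPK3B at -3.10, TCF21 at -1.56 and LUM at 1.25. CALB2 (2.92, with at most 30 counts in a sample) did not pass. Without HT7 replicate 1 or NT7 replicate 2, 2 of these markers fell, and without HT7 replicate 2 or with library totals, 2 rose. Over all genes tested, 23.7% fell and 23.7% rose on day 7. Of 11 tested immune cell markers, 4 fell and 2 rose, with the myeloid genes CD68 at 1.21 and CXCR2 at 1.0. The lymphocyte genes MS4A1 (-2.96) and CD3D (-2.76) had at most 29 and 42 counts in any sample. CD68 lies in a locus whose counts are shared by 7 genes. Without HT7 replicate 1 or 3 or NT7 replicate 1 or 3, 1 immune marker rose. The part of these cells in the PDPN value was not tested.

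Over all genes tested, 15.9% rose and 15.4% fell on day 5, and 1.03% were called on day 3. These other lists also had fewer calls on day 5 than on day 7, except the endothelial list with 10 on both days. On day 5, 8 endothelial markers fell and 2 rose, 4 pan-epithelial and 4 transitional markers rose, and 3 genes of the caveola and flotillin list fell and 1 rose. Of the 15 tested type 1 regulators and YAP/TAZ targets, 3 rose and 3 fell. In addition, 3 of 10 fibroblast and mesothelial markers fell, 3 of 11 immune markers rose, and 1 of 6 lymphatic markers and 1 of 7 RAGE ligands fell. The regulator, lymphatic and RAGE ligand counts were near the shares of all genes tested. No type 2 marker was called on day 5 in edgeR (2 had an unadjusted p-value under 0.05), whereas 2 fell without HT5 replicate 1 and 2 rose without NT5 replicate 1. These day 5 counts depended on single samples. Without HT5 replicate 2, 6 endothelial markers fell and none rose, 2 pan-epithelial and 3 transitional markers rose, 1 gene of the caveola and flotillin list fell and none rose, 2 type 1 regulators fell and none rose, 2 lymphatic markers fell, and no fibroblast, mesothelial or immune marker was called. Without HT5 replicate 1, 2 transitional markers and 1 pan-epithelial marker fell, and 1 lymphatic and 1 fibroblast or mesothelial marker rose. Without NT5 replicate 3, 1 of the type 1 regulators rose and 2 fell. With any other 1 sample left out, between 1 and 5 immune markers rose. On day 3, the genes called in these lists were CDKN1A and LYVE1, which rose, and the endothelial gene TIE1, which fell. The call in the lymphatic list was lost in each fit that left out 1 sample of day 3, except the fit without HT3 replicate 3.

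**Figure D4:**
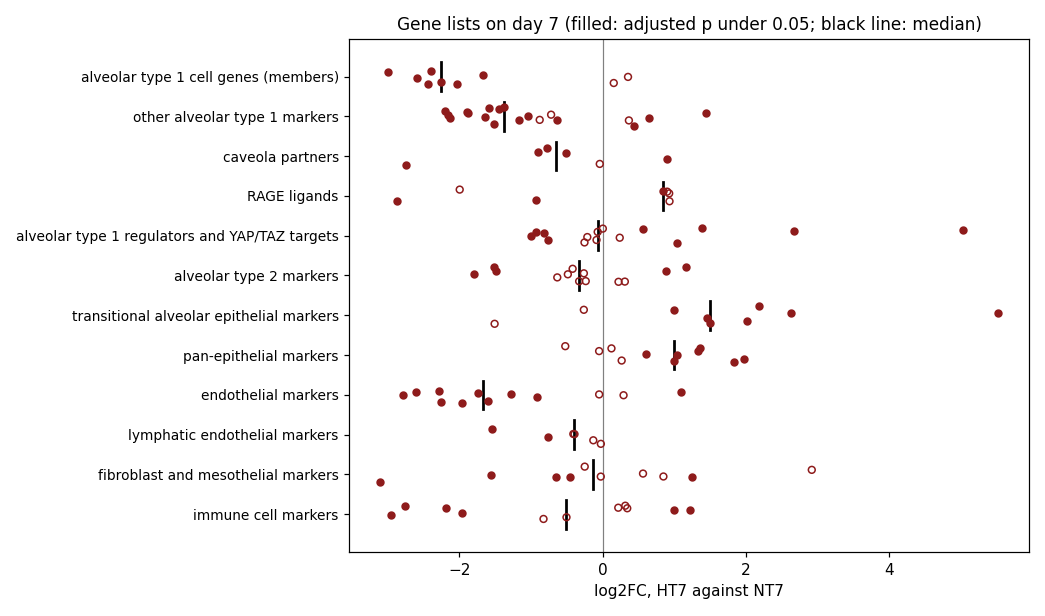
log2FC on day 7 of every tested gene of the 12 lists, with filled points for adjusted p-values under 0.05, open points for the rest and black lines for the list medians. The 9 genes have a median of -2.26 with HOPX and PDPN to the right of 0, the endothelial median is -1.68, and the pan-epithelial and transitional medians are 0.99 and 1.5.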

How the data were processed

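The deposited file holds raw counts per locus, which the authors made from stranded poly(A) libraries without normalization or pooling. The submitters' processing notes list FastQC, STAR 2.7.10a and OryCun2.0. The counting program is not given in the sources used here, and coordinates are those of the table. Locus names have the form that StringTie writes, and a locus with several genes repeats its counts for each.

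Counts were fitted with edgeR 4.0.16 in R 4.3.3 (filterByExpr, TMM, 6 group means, all 17 samples), so HT5 borrowed its spread from the other groups. Standard errors are the log2FC divided by the root of the F statistic. Alternatives covered DESeq2 1.42.0, scaling, filter, prior count (0.125 or 2), samples, loci, replicate block and leaving out samples. The fit was tested on simulated data. Members and lists were chosen with earlier results of these data known. All members are named, and of each other list the 2 highest and the 2 lowest tested genes on day 7; YAP1 and WWTR1 were named after their values were seen. Listed genes without a line were not analysed here. Deviations of samples with the same replicate number correlated at 0.166, 0.131 and 0.199 on day 3, at 0.264 and 0.141 on day 5, and at 0.174, 0.109 and 0.0695 on day 7, so every pair of 3 passed 0.1 on day 3 only. The values given are without a block, and a fit with the replicate number as a block on all days was an alternative. What the numbers stand for is not stated. P-values measure the spread between these samples.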

Additional observations from a re-analysis of the deposited data

Results flagged for a closer look

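For 7 genes the response to hyperoxia differed between day 7 and day 3, tested with edgeR as the difference of the log2FC values and adjusted over all genes tested. The difference was -1.84 for AGER (standard error 0.39, adjusted p = 0.0058), -1.86 for CLIC5 (adjusted p = 0.00467), -1.91 for CAV1 (adjusted p = 0.0017) and -1.48 for CAV2 (adjusted p = 0.00111). It was -2.70 for RTKN2 (adjusted p = 0.0118), -2.40 for EMP2 (adjusted p = 0.00171) and -2.29 for AKAP5 (adjusted p = 0.00789). Leaving out any 1 of the samples of these days (12 fits) left 7 genes called in this comparison.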

How the results depend on the processing

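The number of the 9 genes called on day 7 (7) was the same under DESeq2, RLE factors, library totals, no filter, prior count 2, 1 entry per locus and the day's samples alone. It ran from 7 to 9 with each sample left out. On day 5 it ran from 1 to 7 with each sample left out and was 3 with the day's samples alone. With the limits of the paper applied to edgeR it was 0 on day 5, 2 for day 7 minus day 3 and 2 for HT7 against HT3. With the replicate block, 0 were called on day 3, 6 on day 5 (EMP2 at -1.16 with an adjusted p of 0.0508 from edgeR) and 7 on day 7; no block was fitted for HT7 against HT3 or NT7 against NT3, since it was nested in days. The sign of HOPX on day 5 was positive with library totals (0.0226), the block (0.0727) and the day's samples alone (0.00050). With samples left out, AKAP5 on day 3 ran from -0.22 to 0.20, HOPX on day 5 from -0.0936 to 0.0728, and PDPN from -0.00031 to 0.30 on day 5 and from -0.0183 to 0.35 on day 7. The causes were not tested. Where 1 sample of HT5 was left, it was assumed to vary like the other groups. RTKN2 and AKAP5 had as few as 70 and 113 counts in a sample.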

Other observations

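Genes with the most similar profile to each of the 9 were taken from 10990 loci by the Pearson correlation of log2 CPM over all 17 samples. The samples fall into groups, so these values mainly reflect the group differences and are given as a description. Closest to AGER were ALDH3A2 (0.99), GPC3 (0.99) and C1orf115 (0.99). Those of CAV1 were CAVIN2 (0.99), OLFML2A (0.99) and NCALD (0.98), and those of CAV2 were NCKAP5 (0.98), CAV1 itself (0.98) and KCNH6 (0.98). CLIC5 was closest to SMARCA2 (0.99), CAVIN2 (0.98) and PAG1 (0.98), RTKN2 to COL4A4 (0.99), OGT (0.99) and CTNND1 (0.98), EMP2 to PRX (0.98), STARD8 (0.97) and EDN3 (0.97), and AKAP5 to POGLUT2 (0.97), GPC3 (0.97) and FAM162B (0.96). The values were lower for the genes that did not fall. HOPX was closest to FKBP5 (0.92), C1orf122 (0.89) and ZBTB16 (0.88), and PDPN to GATAD2A (0.81), ZNF407 (0.81) and B4GALT7 (0.80).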
